A study of Arabidopsis thaliana with 5 samples.

Results

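WDR5a (AT3G49660), WDR5b (AT4G02730), RBL (AT3G21060), ASH2R (AT1G51450), ATX1 (AT2G31650) and ATX2 (AT1G05830) encode subunits of Arabidopsis complexes that methylate lysine 4 of histone H3 (H3K4). These 6 genes of 27432 nuclear protein-coding genes were taken by name, as one functional group. The group was selected on the fold enrichment and fold rank of the WDR5a peak, which earlier results of these data had placed among the strongest, so those values are given as a description without a test. Chromatin immunoprecipitation followed by sequencing (ChIP-seq) with an anti-GFP antibody mapped TREE1 fused to green fluorescent protein. The shoots came from 3-day-old dark-grown Arabidopsis thaliana seedlings of genotype pTREE1:TREE-GFP (TREE1p::TREE1-GFP in the sample titles), in which the TREE1 promoter drives the fusion. There were 2 ethylene libraries (4 h of 10 ppm ethylene) and 1 air library (4 h of hydrocarbon-free air), with 1 input per treatment. All groups carry the transgene, and the inputs entered only through the authors' peak calls.

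H3K4 methylation marks active chromatin. In complexes of the COMPASS type, a catalytic SET-domain protein is joined by a core of WD40 and SPRY-domain proteins, which hold the enzyme and the histone tail together. In Arabidopsis, ATX1 and ATX2 are trithorax-like SET-domain proteins, WDR5a and RBL are WD40 proteins of the core, ASH2R (also called TRAUCO) is its SPRY-domain protein, and WDR5b is a second homologue of human WDR5. ATX1 and WDR5a are known for their part in the control of flowering.

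The ethylene libraries kept 5884897 and 9459860 tags after duplicate removal and the air library kept 9325092. Their lists held 9156, 9958 and 8602 peaks, with median lengths of 488, 488 and 673 bp. A gene was said to have a peak when a deposited peak overlapped the gene or the 1000 bp on either side. Fold enrichment is the authors' ratio of tags to the local background, score is 10 times the negative log10 of the peak's p-value, and summit height is the tag pileup at the summit. Folds cannot be set side by side between lists called at other depths or against another input, so each is given with its rank within its list or beside the list median of 3.99 in ethylene library 1, 3.39 in ethylene library 2 and 3.11 in air. With 1 air library, no difference between ethylene and air had a replicate check, and no test of treatment was made. Nothing in the labels tells if the ethylene libraries were separate seedling batches. In the list headers the runs are named for another protein than TREE1, and the air run as a replicate 2; the samples are named here by their labels.

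TREE1-GFP peaks were found at 4 of the 6 genes. WDR5a and RBL had a peak in all 3 libraries. ATX2 had one in ethylene library 1 and in air, WDR5b had one in ethylene library 2 alone, and ASH2R and ATX1 had none in any library. Each library thus held 3 of the 6 genes. By the same rule a peak was found at 40.7% of all coding genes in ethylene library 1, 41.2% in ethylene library 2 and 39.2% in air. All 3 libraries shared 25.6% of coding genes, against 2 of the 6 here, and 44.7% of coding genes had a peak in none, also against 2 of 6. Counts of this size are near the background and say nothing particular about the 6 genes as a group.

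**Figure D1:**
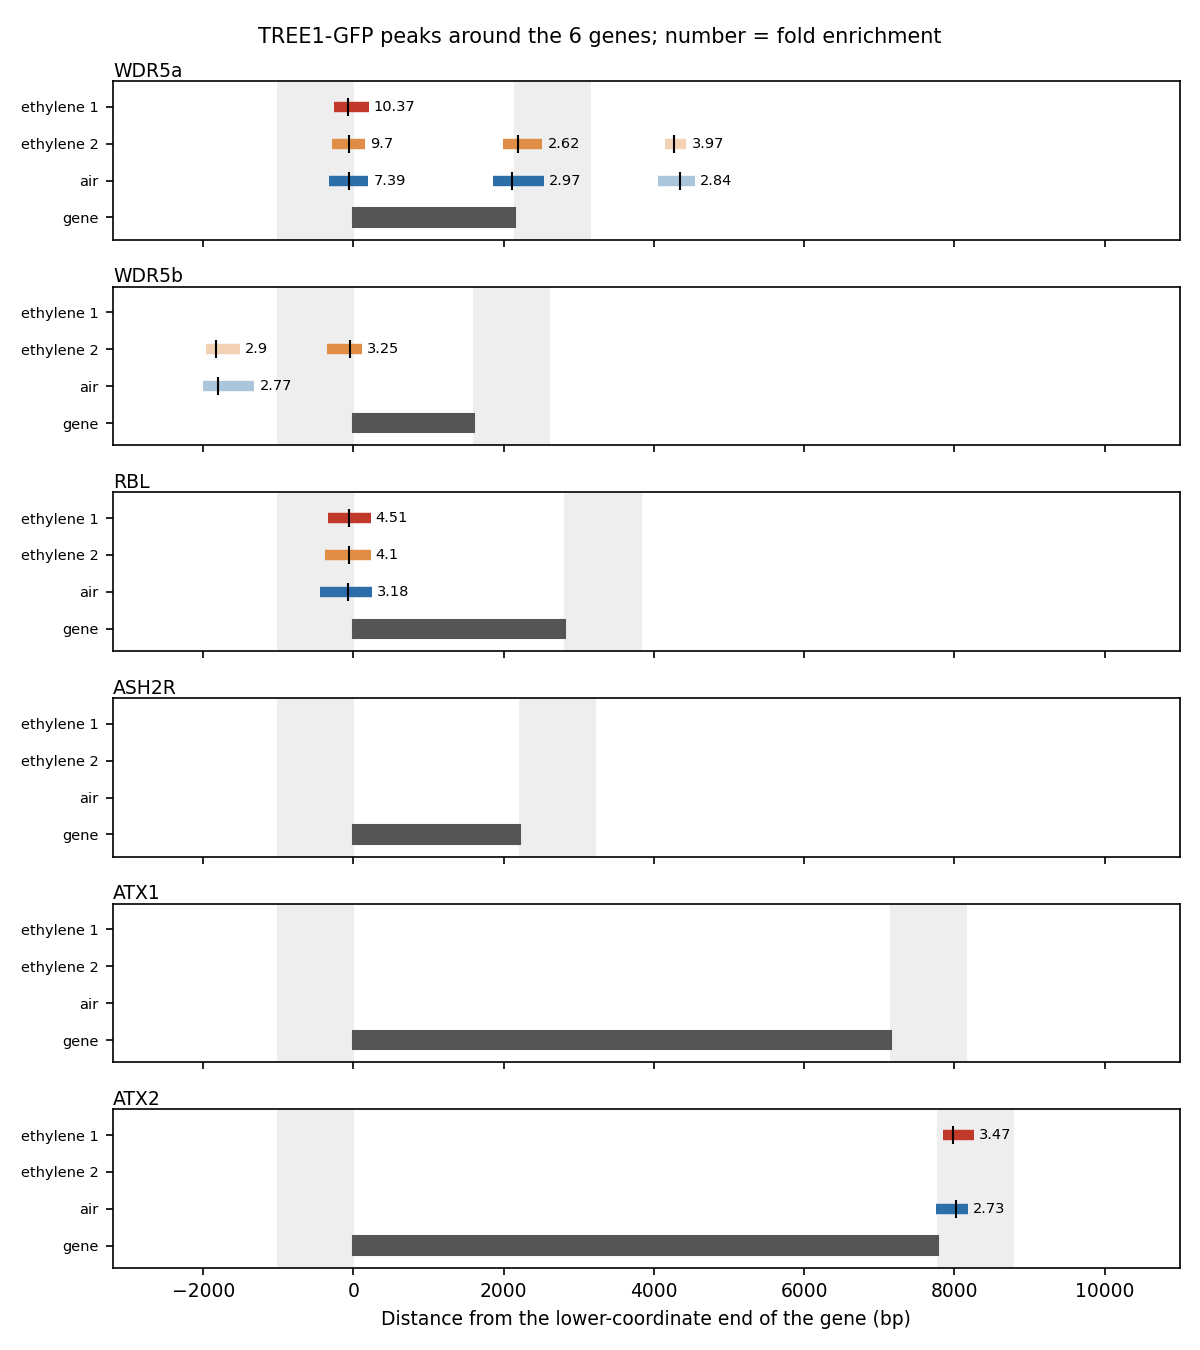
Deposited TREE1-GFP peaks around each of the 6 genes, by library, with the distance in bp from the end of the gene with the lower coordinate on the horizontal axis. Grey boxes are genes, light grey bands the 1000 bp on either side, coloured bars peaks (pale where they lie outside the window), black ticks summits, and numbers the authors' fold enrichment. The peaks of WDR5a and RBL line up across the 3 libraries just outside the lower-coordinate end of the gene, and ASH2R and ATX1 have none.

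By fold, the value the group was selected on, WDR5a held by far the strongest site of the 6 genes. The peak spanned 18413308 to 18413765 on chromosome 3 (TAIR10) in ethylene library 1, 18413284 to 18413723 in ethylene library 2 and 18413234 to 18413759 in air. Its fold was 10.37 in ethylene library 1, 9.7 in ethylene library 2 and 7.39 in air. The ranks by fold were 17 of 9156 peaks, 2 of 9958 and 6 of 8602. In each library the site therefore belonged to the first 0.186%, 0.0201% and 0.0698% of the list. Counting each gene by its strongest peak, 29, 2 and 13 coding genes, WDR5a included, reached a fold as high.

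The authors' score of the WDR5a peak was 354.67 in ethylene library 1, 405.35 in ethylene library 2 and 236.75 in air, and the authors' false discovery rate was 0% in all libraries. By score the peak ranked lower than by fold, at place 122, 101 and 317. It was 458, 440 and 526 bp long in the 3 libraries, against list medians of 488, 488 and 673 bp. It held 112 tags in ethylene library 1 (exact Poisson 95% interval 92.2 to 135), 151 in ethylene library 2 (128 to 177) and 157 in air (133 to 184). These intervals cover counting error only. Per bp of peak this made 0.245, 0.343 and 0.298 tags, against list medians of 0.152, 0.215 and 0.215. Summit height was 42 in ethylene library 1, 55 in ethylene library 2 and 69 in air, where the median peaks reached 20, 24 and 32.

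**Figure D2:**
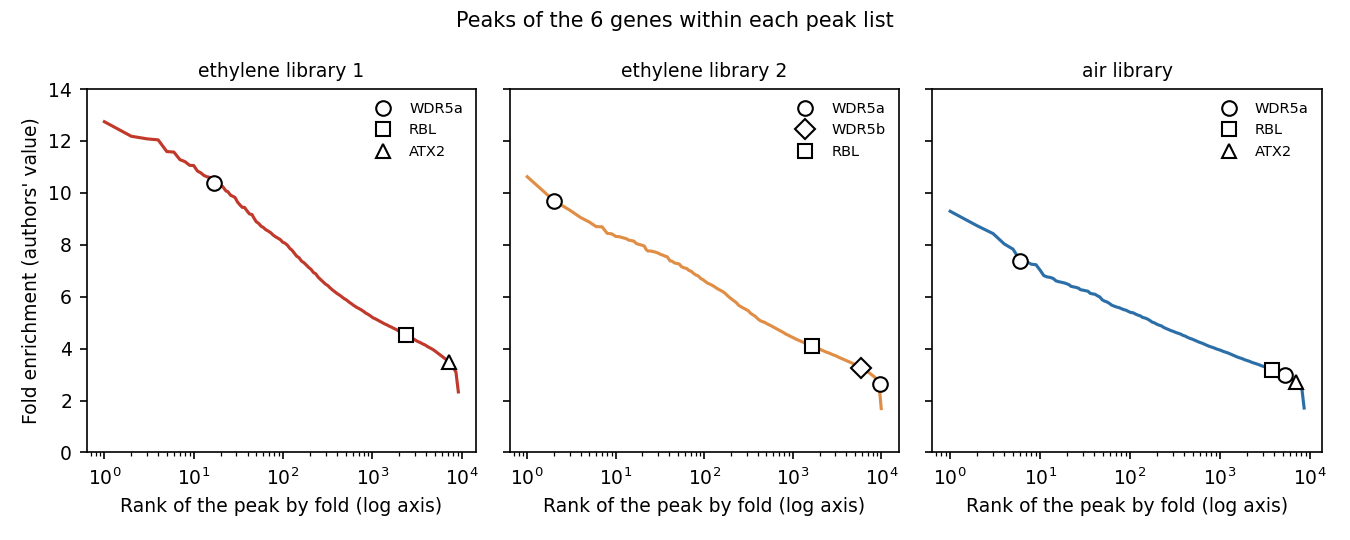
Fold enrichment against rank by fold (log axis) for all peaks of each library (coloured line), with the peaks of the 6 genes as open symbols. The strongest WDR5a peak sits at rank 17, 2 and 6 in ethylene library 1, ethylene library 2 and air, while RBL, ATX2, WDR5b and the weaker WDR5a peak lie in the long lower part of the curves.

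The measures did not order ethylene and air at WDR5a in the same way. Relative to the list median, the fold was 2.6 in ethylene library 1, 2.86 in ethylene library 2 and 2.38 in air. Per bp and per 1000000 kept tags, the peak held 0.0416, 0.0363 and 0.032 tags, so that the ethylene libraries were at 1.3 and 1.13 times the air value. Summit height per 1000000 kept tags was 7.14 in ethylene library 1, 5.81 in ethylene library 2 and 7.4 in air, so that the ethylene libraries were at 0.965 and 0.786 times the air value. Both ethylene libraries thus lay above air by fold over the list median and by scaled tag density, and below it by scaled summit height. By fold rank, air at 6 lay between ethylene library 1 at 17 and ethylene library 2 at 2. The ethylene peaks were also shorter than the air peak, and the fragment size MACS used was 71 bp in ethylene library 1, 62 bp in ethylene library 2 and 79 bp in air. The part of peak length and fragment size in these differences was not tested.

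**Figure D3:**
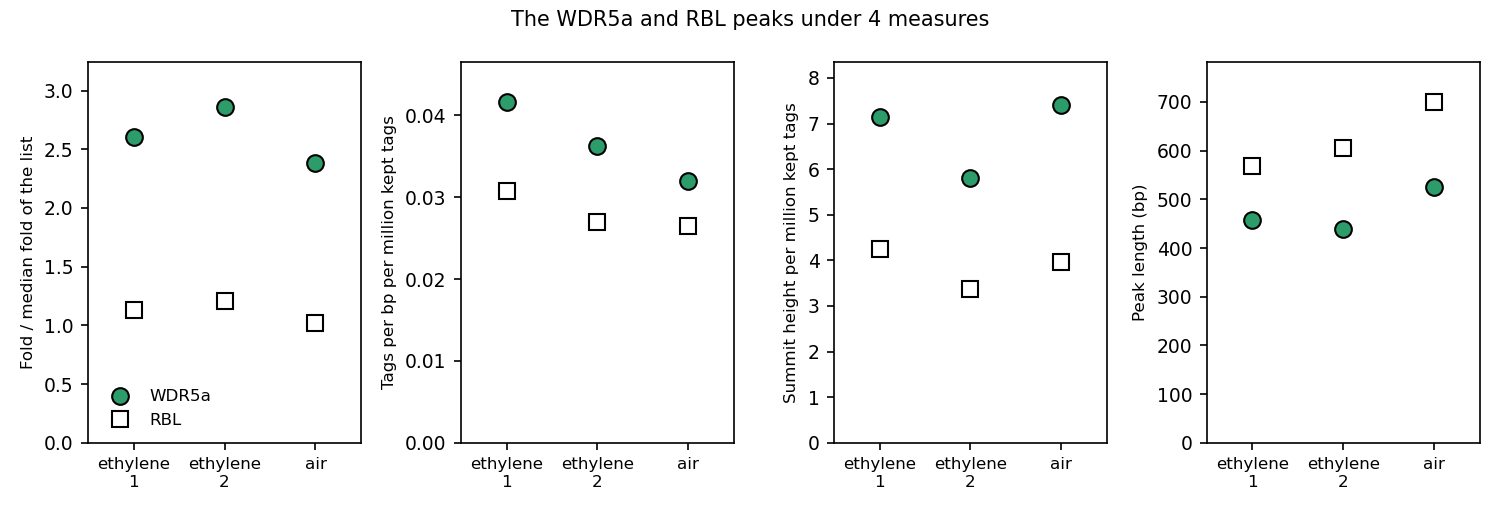
The strongest peaks of WDR5a (green circles) and RBL (open squares) in ethylene library 1, ethylene library 2 and air, as fold over the median fold of the list, tags per bp per 1000000 kept tags, summit height per 1000000 kept tags and peak length in bp. WDR5a lies above RBL in the first 3 measures in every library, whereas the order of ethylene and air changes between measures.

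The position of the WDR5a summit hardly moved between libraries. It lay 76 bp outside the lower-coordinate end of the gene in ethylene library 1, 61 bp in ethylene library 2 and 63 bp in air, a spread of 15 bp. The gene table used here gives no strand, so whether this end is the start or the end of the transcript is not stated. The next coding gene on that side is 3779 bp away, and no other coding gene shared this peak within 1000 bp. Over the 4507 merged regions with exactly 1 peak in each library, the median spread of the 3 summits was 98 bp, and 3.57% had a spread of 15 bp or less. Strong sites were in general placed more narrowly. In the 190 regions that ranked among the first 500 folds of every list, the median spread was 27 bp, and 21.1% were at 15 bp or less.

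**Figure D4:**
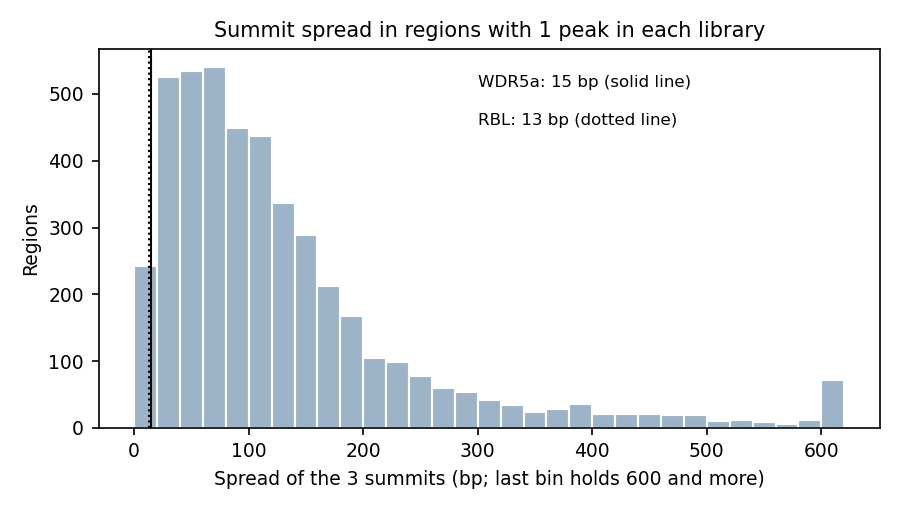
Distance in bp between the outermost of the 3 summits (horizontal axis) and number of merged regions (vertical axis), for the 4507 regions with exactly 1 peak in each library. The lines mark WDR5a at 15 bp and RBL at 13 bp, both in the lowest bin, against a median of 98 bp.

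A weaker WDR5a site lay at the other end of the gene, in 2 of the 3 libraries. In ethylene library 2 it spanned 18415560 to 18416081 with a fold of 2.62 (rank 9523) and 105 tags, and its score of 50.75 was just above the limit of 50 set by the authors' p cutoff of 1e-05. In air it spanned 18415416 to 18416097 with a fold of 2.97 (rank 5212), 112 tags and a score of 120.15. Ethylene library 1, the shallowest, had no peak there, and the part of depth in this was not tested. The summits lay 39 bp outside the gene in ethylene library 2 and 39 bp inside it in air. Peaks outside the window, 2001 bp from WDR5a in ethylene library 2 and 1904 bp in air, had folds of 3.97 and 2.84 and were not counted.

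RBL, the homologue of the human core subunit RbBP5, had a peak of middle rank in all libraries. It spanned 7377052 to 7377619 on chromosome 3 in ethylene library 1, 7377014 to 7377619 in ethylene library 2 and 7376941 to 7377639 in air. The folds were 4.51, 4.1 and 3.18, at rank 2391 of 9156, 1632 of 9958 and 3792 of 8602. The peak held 103 tags (exact Poisson 95% interval 84.1 to 125) in ethylene library 1, 155 (132 to 181) in ethylene library 2 and 173 (148 to 201) in air. It held more tags than the shorter WDR5a peak in ethylene library 2 (151) and air (157), and fewer in ethylene library 1 (112). Its score of 99.22 in air lay just under 100, against 137.37 and 150.77 in the ethylene libraries. The RBL peak thus stood higher in both ethylene lists than in the air list by fold rank, with the fold at 1.13, 1.21 and 1.02 times the list median.

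Tags per bp per 1000000 kept tags at RBL were 0.0308 in ethylene library 1, 0.027 in ethylene library 2 and 0.0265 in air, with the ethylene libraries at 1.16 and 1.02 times the air value. Summit heights of 25, 32 and 37 made 4.25, 3.38 and 3.97 per 1000000 kept tags, with the ethylene libraries at 1.07 and 0.853 times the air value. The air value of summit height thus lay between those of the ethylene libraries.

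The RBL summits fell 54, 60 and 67 bp outside the lower-coordinate end of the gene, within 13 bp of each other. Of all regions with 1 peak in each library, 2.84% had a spread as small. RBL had this narrow placement at a fold rank far below that of WDR5a. The site sat in a gap of 164 bp between RBL and PSBTN (AT3G21055), which encodes a small photosystem II subunit, and the summits were 111, 105 and 98 bp outside PSBTN. Every RBL peak counts for PSBTN as well, and these lists cannot assign it to either gene.

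WDR5b had a single peak, in ethylene library 2, from 1207328 to 1207794 on chromosome 4. Its fold was 3.25 (rank 5925), it held 103 tags (exact Poisson 95% interval 84.1 to 125), and its score of 52.95 was close to the limit of 50. The summit lay 48 bp outside the lower-coordinate end of WDR5b and 199 bp outside AT4G02725, in a gap of 246 bp between the genes. Of all coding genes, 5.26% had a peak in ethylene library 2 alone. In air the nearest peak was 1318 bp from WDR5b, at a fold of 2.77, and in ethylene library 1 it was 3273 bp away, at a fold of 3.24. The fold of WDR5b in its only library was 0.959 times the list median, whereas WDR5a reached 2.86 times in the same library. This gap in fold is a description only, because the group was selected on the WDR5a fold. The number of libraries with a peak also differed, but the single WDR5b call was lost in lists of equal length.

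ATX2 and ATX1, the catalytic subunits, are the longest of the 6 genes, at 7780 and 7160 bp. The ATX2 peak spanned 1761981 to 1762388 on chromosome 1 in ethylene library 1 and 1761885 to 1762309 in air. It held 54 tags (exact Poisson 95% interval 40.6 to 70.5) at a fold of 3.47 in ethylene library 1 and 76 tags (59.9 to 95.1) at a fold of 2.73 in air, at ranks 7172 and 6911. Both folds were under the list median, at 0.87 and 0.878 times. The scores were 78.64 and 56. The summits lay 209 and 239 bp outside the higher-coordinate end of ATX2, 30 bp from each other. They were closer to AT1G05835, 27 bp outside that gene in ethylene library 1 and 3 bp inside it in air. AT1G05840 was also within 1000 bp of the peaks. In ethylene library 2 the nearest peak was 4224 bp from ATX2. A peak in ethylene library 1 and air without ethylene library 2 was found at 4.22% of coding genes.

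ATX1 had no peak within 8453 bp in ethylene library 1, 12510 bp in ethylene library 2 or 10879 bp in air. Of the 453 coding genes at least as long as ATX1, 56.1% had a peak in ethylene library 1, 52.1% in ethylene library 2 and 49.2% in air. None in any library was found at 32.7% of them. Long genes have a longer window, and its part in these shares was not tested. ASH2R had its nearest peaks 5782, 21186 and 5843 bp away in ethylene library 1, ethylene library 2 and air. A gene without a peak is one at which no region passed the authors' cutoff, and binding below that cutoff was not measured here.

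By the summed difference in fold rank over the 3 libraries, the genes closest to WDR5a were AT2G33847 and its neighbour AT2G33850, which share a peak at ranks 7, 11 and 2 in ethylene library 1, ethylene library 2 and air. TRM10 followed at ranks 35, 5 and 12, and AT5G64710 at ranks 1, 1 and 17. AT3G57680 came next, at ranks 12, 12 and 24. These genes were chosen for likeness of rank alone.

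The wider H3K4 machinery was taken as a list of 24 genes, which includes 2 H3K36 methyltransferase genes. Of these, 10 had a peak in ethylene library 1, 11 in ethylene library 2 and 10 in air, again close to the 40.7%, 41.2% and 39.2% of all coding genes. The median of their strongest folds was 3.88, 3.43 and 2.96, against 4.09, 3.46 and 3.17 over all coding genes with a peak. A peak in all libraries was found at 6 genes, and 10 had none in any, namely ATX4, ATX5, ATXR7, ASHR3, LDL3, JMJ14, JMJ15, EBS, ING1 and SDG8. Of all coding genes, 25.6% had a peak in all libraries and 44.7% in none, so these counts too are near the background. ATX4 and ATX5 were without a peak, as was ATX1, and ATX3 was not, and nothing is read from this.

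Among the 9 genes listed as writers and their partners, 5 had a peak in each ethylene library and 3 in air. The shares of all coding genes were 40.7%, 41.2% and 39.2% in ethylene library 1, ethylene library 2 and air. With 9 genes and 1 air library, nothing is read from these counts. ATX3, a trithorax-like gene, had folds of 4.44, 3.94 and 2.86 in ethylene library 1, ethylene library 2 and air. Its strongest peak by fold lay at the higher-coordinate end in ethylene library 1 and air and at the lower-coordinate end in ethylene library 2. Ethylene library 2 had a peak at the higher-coordinate end as well, at a fold of 3.04. The score of that peak was 99.26, against 78.13 at the lower-coordinate end. ATXR3, which encodes the main enzyme for H3K4 trimethylation, had folds of 5.55, 3.43 and 2.53, with summits 963, 993 and 931 bp outside the gene. ULT1, which encodes a partner of ATX1, had folds of 3.79, 3.44 and 2.6 and summits 762, 900 and 758 bp away. AT5G14530 and AT5G66240 had a peak in both ethylene libraries and not in air, at folds of 3.73 and 3.05 for AT5G14530 and 3.96 and 3.44 for AT5G66240. Of all coding genes, 5.93% had this pattern. None of these folds came near those of WDR5a, which is a description only, because the group was selected on the WDR5a fold.

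Of the 9 genes listed as H3K4 demethylases, 2 had a peak in ethylene library 1, 4 in ethylene library 2 and 6 in air. LDL2, of the LSD1 type, had folds of 3.99, 4.3 and 3.18 in ethylene library 1, ethylene library 2 and air. PKDM7D, of the jumonji type, had folds of 3.68, 2.9 and 3.19. LDL1 and JMJ18 had a peak in air alone, with folds of 2.47 and 2.62, and FLD and AT1G63490 had one in ethylene library 2 and air. The share of all coding genes with either pattern was not computed, so nothing is read from the patterns. The shares of all coding genes with a peak, given above, were 40.7%, 41.2% and 39.2%, and with lists of 9 genes and 1 air library nothing is read from these counts.

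Among the 4 reader genes, SHL1, which encodes a reader of histone methylation, came next after WDR5a by fold. This place rests on a peak with summits beyond the 1000 bp on either side of SHL1. The folds of that peak were 8.1, 4.75 and 3.88 in ethylene library 1, ethylene library 2 and air. By score the order was reversed in every library, with 1187.95, 1297.2 and 1048.29 at SHL1 against 354.67, 405.35 and 236.75 at WDR5a. Tags per bp were lower at SHL1 in the ethylene libraries (0.223 and 0.291) and higher in air (0.343 against 0.298). Summit height was lower at SHL1 in every library. The strongest SHL1 peak was broad, at 2487, 3518 and 3481 bp, with summits 1957, 2165 and 2200 bp outside the gene. It overlapped the gene in ethylene library 2 and air. In ethylene library 1 it ended at 18217181, 448 bp from SHL1. A separate peak of that library, from 18217216 to 18218227, overlapped the gene at a fold of 4.51. All libraries also had a peak at the higher-coordinate end of SHL1, with folds of 3.76, 3.61 and 3.03. Its summits lay 176 and 74 bp outside the gene in the ethylene libraries and 48 bp inside it in air. The highest folds of SHL1 peaks with a summit in the window were thus 4.51, 3.61 and 3.03. These were 1.13, 1.06 and 0.974 times the list median. ING2 had a peak in both ethylene libraries, with folds of 3.26 and 2.58, and not in air. ASHH1, one of the H3K36 methyltransferase genes, had a peak in ethylene library 1 alone at a fold of 3.7. The share of all coding genes with a peak in that library alone was not computed.

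**Figure D5:**
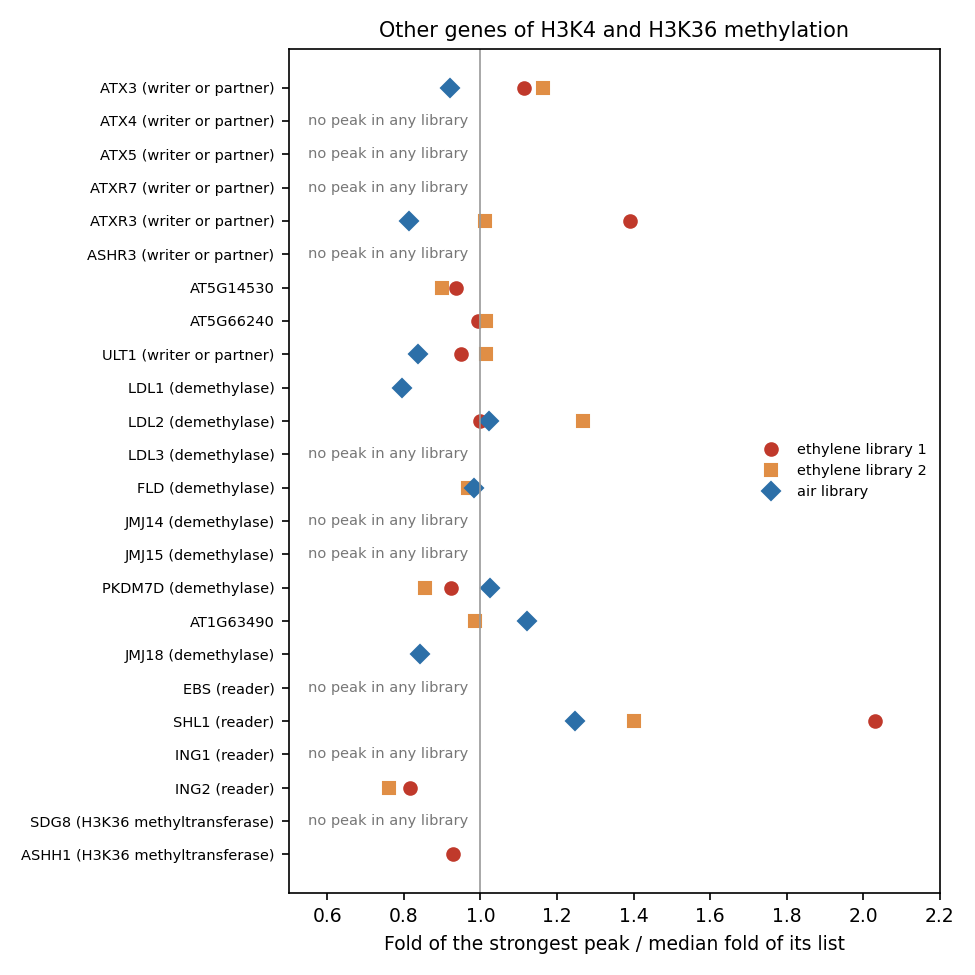
Fold of the strongest peak divided by the median fold of its list (horizontal axis) for the 24 listed genes, in ethylene library 1 (circles), ethylene library 2 (squares) and air (diamonds), with the vertical line at the list median. Most genes with a peak lie near the line, SHL1 lies farthest above it, and 10 genes have no peak. The SHL1 values belong to a peak with summits beyond the 1000 bp on either side of the gene.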

How the data were processed

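The submitters' processing notes name BWA and the TAIR10 build for the ChIP-seq reads. MACS 1.4.2 called peaks in each ChIP library against the input of its treatment, both ethylene libraries against the same input, at a p cutoff of 1e-05 with 1 tag kept per position, per the file headers. The tags of a peak were deposited as raw counts. The authors' score is 10 times the negative log10 of a p-value, fold enrichment is a ratio to local background, and the false discovery rate is in percent, per the file headers. Summit height is a signal from the deposited summit lists. Duplicates made up 53.7% and 48.6% of the ethylene tags and 49.7% of the air tags before filtering. They were removed, so not all sequenced tags were counted as independent molecules.

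All else was computed with pandas 2.3.3, numpy 2.4.6 and scipy 1.17.1 under Python 3.11.15, and drawn with matplotlib 3.10.9. Gene positions came from a RefSeq table of TAIR10.1, without strand. To check it against the TAIR10 lists, summits were shifted in 100 bp steps to at most 2000 bp. Unshifted summits had the smallest share within coding genes for each chromosome of each library (15 of 15 cases). Gene positions themselves are not printed. A peak was assigned to a gene when it overlapped the gene or its 1000 bp flanks by at least 1 bp, and the call was tested on simulated data. Alternatives changed the flank, the overlap rule, the score limit, the list length and the measure of rank. Others left out an ethylene library or, for the WDR5a rank, chromosome 2 from 3 to 4 Mb. Merged regions were groups of overlapping peaks. The 6 genes, the list and the rules were chosen with earlier results of these data known. Named were the 6 genes, genes sharing their peaks, list genes with a peak in all libraries or in none, and the 5 genes (more with ties) nearest WDR5a in rank, of which a tied result is not reported here. The other list genes named were added after their calls were seen. The planned motif search was not run, as no sequence was used here.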

Additional observations from a re-analysis of the deposited data

How the results depend on the processing

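A score of at least 100 left WDR5a and RBL with a peak in both ethylene libraries and 1 of the 6 genes, WDR5a, in air, so that 1 gene kept a peak in all libraries. Under that limit the 24 listed genes had 4, 3 and 3 with a peak in ethylene library 1, ethylene library 2 and air, and all coding genes had 5043, 5263 and 4414. The place of the WDR5a peak depended on the measure. By score it was in the first 1.33%, 1.01% and 3.69% of the lists, by summit height in the first 1.63%, 0.432% and 0.686%, and by tags per bp in the first 1.62%, 0.693% and 2.08%. The cause was not tested. Leaving out either ethylene library gave 2 to 3 genes with a peak in the remaining libraries. The other 67 recomputed values stayed within 1.5 times the count or within the 95% interval of the share. Among them, the gene body alone dropped ATX2 in ethylene library 1, a flank of 2000 bp added WDR5b in air, and lists of equal length dropped WDR5b in ethylene library 2. A change from 3 to 2 genes thus fell within the limit. The air counts in lists of equal length could not change, because the air list set that length. The ratio of the ethylene mean to air had no steady side of 1. At WDR5a it was 0.985 by tags per bp, 1.22 per 1000000 kept tags and 0.875 by scaled summit height, and at RBL 0.883, 1.09 and 0.962. By tags per bp, leaving out either ethylene library gave 0.819 to 1.15 at WDR5a and 0.733 to 1.03 at RBL. All but the first WDR5a alternative were chosen after seeing the data. The lists hold no value for regions below the cutoff. Ethylene library 1 was the shallowest, and the part of depth in the calls of weak sites was not tested. No paired analysis was possible because the air library has 1 replicate and no test was made.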
